A study of Mus musculus with 4 samples.

Results

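Retinoic acid, the active form of vitamin A, is made and removed by a short chain of proteins, and 9 genes of that chain were followed here, out of 55359 in the count table. STRA6 takes up retinol, RDH10 oxidises it to retinaldehyde, DHRS3 reduces retinaldehyde back to retinol, and the retinaldehyde dehydrogenases ALDH1A1, ALDH1A2 and ALDH1A3 complete the synthesis. CRABP1 and CRABP2 bind retinoic acid inside the cell, and CYP26B1 oxidises it for disposal. In the heart, Aldh1a2 is the main synthesising gene of the embryonic epicardium, and retinoic acid acts on gene expression through the nuclear receptors RAR and RXR. The genes were matched by symbol to a list that was chosen by pathway with the counts and fold changes of OENr4a3 against OECtrl in these same libraries known. Levels and fold changes of the 9 genes in that comparison are therefore given as a description, without p-values, and support nothing by themselves.

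The cells were primary cultures of cardiac fibroblasts, which make the heart's matrix, from wild-type mice of postnatal days 1 to 3. One group overexpressed Nr4a3 (OENr4a3, 2 libraries), an orphan nuclear receptor, and the other carried an overexpression control (OECtrl, 2 libraries). The study asked how Nr4a3 affects direct reprogramming of fibroblasts to cardiomyocyte-like cells, and its design text places collection at reprogramming day 7, whereas the sample titles give day 10. The titles name no reprogramming factors, so they do not tell whether both groups also received these. The labels give neither the vector nor the promoter of the introduced gene, and leave unsaid whether replicates were separate cultures. P-values therefore rest on the spread between libraries alone, and that spread may be technical.

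The libraries held 18441428 and 18287644 counts in OENr4a3 and 14275501 and 16461333 in OECtrl, and the floor behind a count of 0 was 3 reads, equal to 0.165 to 0.208 CPM (counts scaled to library size). It covers counting error only. Nr4a3 itself had 3184 and 3196 reads in OENr4a3, against 36 and 31 in OECtrl. Markers of cardiac fibroblasts were abundant, with 9 genes that summed to 19001 and 19126 CPM in OENr4a3 and 18737 and 17767 CPM in OECtrl. Of other cell types, 11 mesothelial and epicardial markers summed to 654 and 619 CPM in OENr4a3 and 1207 and 1272 CPM in OECtrl, and 9 macrophage markers to 633 and 613 CPM against 954 and 941 CPM. Endothelial markers (8 genes) summed to 51.6 and 58.0 CPM in OENr4a3 and 62.8 and 65.4 CPM in OECtrl, and smooth muscle and pericyte markers (8 genes) to 1706 and 1736 CPM against 2209 and 2267 CPM. That sum was mostly Acta2, which was lower with Rgs5, while Cspg4, Notch3 and Abcc9 of the same list were higher. The 10 cardiomyocyte markers reached 264 and 291 CPM in OENr4a3 and 454 and 500 CPM in OECtrl, nearly all from Tnnt2, which was lower, while Myh6 was higher at 5.45 and 2.95 CPM against 1.31 and 0.0598 CPM. The 4 Schwann cell markers summed to 6.61 and 7.57 CPM against 6.78 and 7.42 CPM with Sox10 at 0. Fewer cells of a type and less RNA per cell cannot be told apart in these bulk libraries.

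After the filter on low counts, 8 of the 9 genes could be compared. Aldh1a2, Cyp26b1 and Dhrs3 were higher in OENr4a3, Aldh1a1 and Crabp1 were lower, and Rdh10, Aldh1a3 and Crabp2 did not pass the threshold. That is 3 higher and 2 lower of 8 genes tested in edgeR's quasi-likelihood fit over all 15029 genes, at an adjusted p of 0.05, beside 23.0% of all genes tested (12.0% higher and 11.0% lower). Because the genes were listed with this comparison known, nothing is read from that share. For the same reason the calls of these 9 genes, here and below, are labels from the fit and no test of them. The same 5 genes had groups that did not overlap, as did 68.2% of all genes tested.

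**Figure D1:**
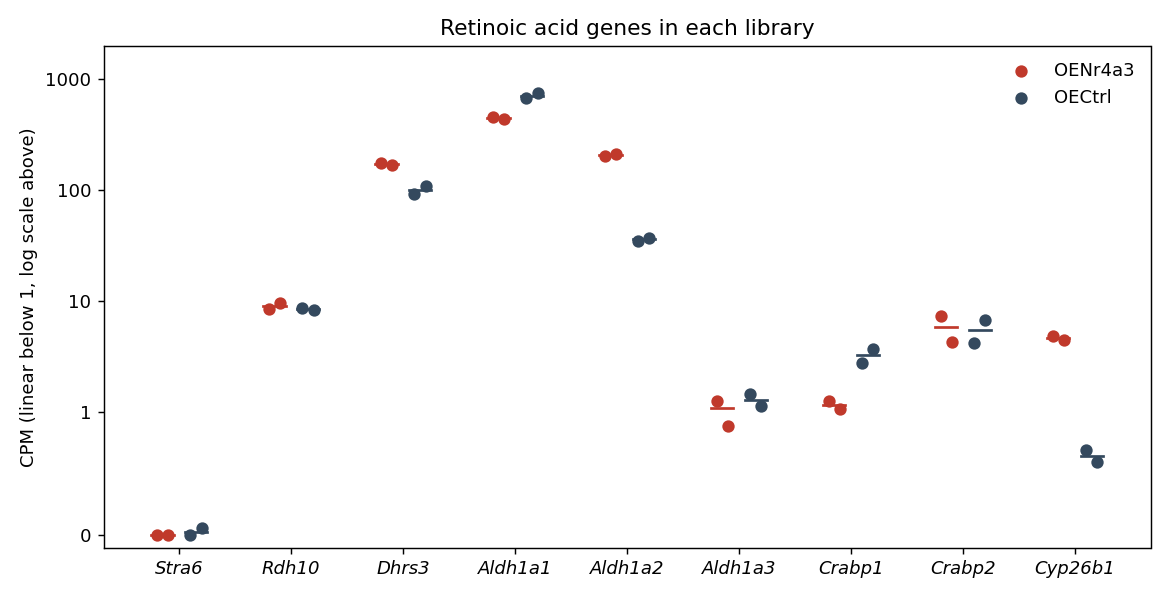
CPM on TMM-scaled library sizes (vertical axis, linear below 1 and logarithmic above) for each of the 9 genes, with 1 point per library and a line at the mean of the 2 libraries of OENr4a3 (left of each pair) and OECtrl (right). The points of Aldh1a2, Cyp26b1 and Dhrs3 lie higher in OENr4a3, those of Aldh1a1 and Crabp1 lie lower, and the other genes overlap or are near 0.

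The uptake receptor was not detectable at this depth. Stra6, whose product imports retinol from its carrier in blood, had 0 and 0 reads in OENr4a3 and 0 and 1 in OECtrl, so no fold change is given. Its relative Stra6l, which encodes a retinol receptor known from mouse liver and intestine and is named after its values were seen, had 30 and 23 reads in OENr4a3 and 33 and 31 in OECtrl (log2 fold change -0.49, 95% interval -1.26 to 0.28, adjusted p = 0.319 in edgeR's quasi-likelihood test).

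The enzymes at the retinol to retinaldehyde step differed from each other. Rdh10, the oxidising enzyme, measured 8.54 and 9.68 CPM in OENr4a3 and 8.65 and 8.38 CPM in OECtrl. Its groups overlapped, and the log2 fold change was 0.10 ± 0.16 (SE; 95% interval -0.27 to 0.47). Dhrs3, the reducing enzyme and itself a gene that retinoic acid induces in many cells, measured 176 and 167 CPM in OENr4a3 and 91.9 and 108 CPM in OECtrl. Both OENr4a3 libraries lay above both OECtrl libraries, a 1.71-fold difference (log2 fold change 0.78 ± 0.11 SE). Per kilobase of exonic length, Dhrs3 stood 29.3 and 24.6 times above Rdh10 in OENr4a3 and 15.1 and 18.4 times above it in OECtrl.

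Of the dehydrogenases that make retinoic acid from retinaldehyde, Aldh1a2 was higher and Aldh1a1 lower. Aldh1a2 measured 206 and 211 CPM in OENr4a3, against 35.2 and 37.5 CPM in OECtrl. The replicates were close and the groups far apart, at 208 ± 4.02 CPM in OENr4a3 and 36.3 ± 1.58 CPM in OECtrl (SD, n = 2 each), a 5.73-fold difference (log2 fold change 2.52 ± 0.11 SE). Aldh1a1, the most abundant of the 9 genes by CPM in each library, measured 456 and 436 CPM in OENr4a3, against 677 and 748 CPM in OECtrl. Both OENr4a3 libraries lay below both OECtrl libraries, with means of 446 ± 14.0 CPM and 712 ± 50.5 CPM (SD, n = 2 each; log2 fold change -0.68 ± 0.10 SE). Aldh1a3 was scarce, at 1.27 and 0.890 CPM in OENr4a3 and 1.45 and 1.14 CPM in OECtrl, and its groups overlapped (log2 fold change -0.25, 95% interval -1.18 to 0.67).

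Per kilobase of the deposited exonic length, the ratio of Aldh1a2 to Aldh1a1 was 0.983 and 1.06 in OENr4a3 and 0.114 and 0.109 in OECtrl. That length is 4937 bases for Aldh1a1, whose longest coding transcript in GENCODE M21 has 2358, and 2264 bases for Aldh1a2 by either measure. With transcript lengths, chosen after seeing the data, the ratio was 0.470 and 0.505 in OENr4a3 and 0.0542 and 0.0521 in OECtrl, so which of the pair was more abundant per length in OENr4a3 cannot be given. Aldh1a2 made up 49.5% and 51.3% of the summed level of the 3 genes in OENr4a3, against 10.2% and 9.83% in OECtrl, and with transcript lengths 31.9% and 33.5% against 5.14% and 4.95%. The share was higher in OENr4a3 by either length, but the sum was not. It was 183 and 182 CPM per kilobase in OENr4a3 and 153 and 168 in OECtrl by exonic length, and 284 and 278 in OENr4a3 and 303 and 334 in OECtrl by transcript length, so its direction depends on the length used. Aldh1a3 gave at most 0.206% of the sum in any of the 4 libraries by either length.

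**Figure D2:**
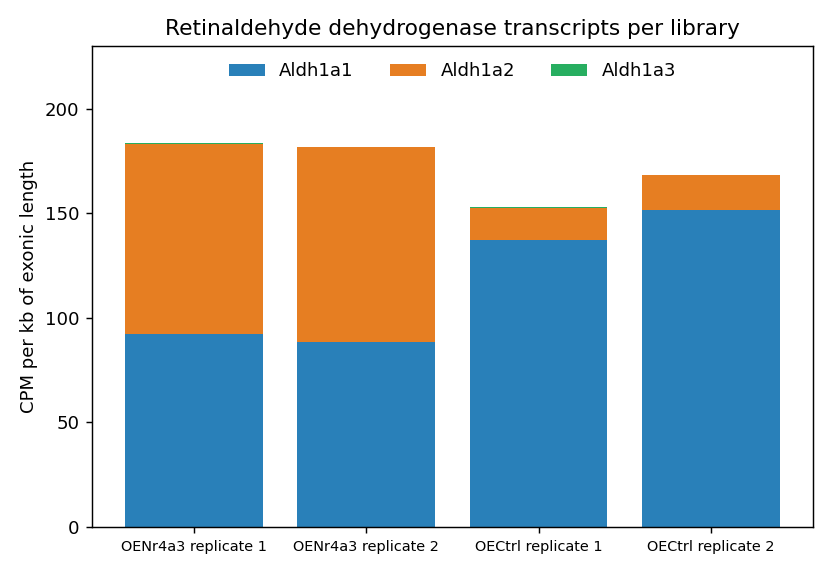
Summed level of Aldh1a1, Aldh1a2 and Aldh1a3 in each library, in CPM per kilobase of exonic length (vertical axis, from 0), stacked by gene, with the OENr4a3 libraries left of the OECtrl libraries. The ratio of the Aldh1a2 part to the Aldh1a1 part is 0.983 and 1.06 in OENr4a3 and 0.114 and 0.109 in OECtrl, and by transcript length it would be 0.470 and 0.505 against 0.0542 and 0.0521, with the order of the totals turned.

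Aldh1a2 is also a marker of mesothelium and epicardium in the embryo, and 11 other markers of those layers were compared. All 11 had reads in both groups. None passed as higher in OENr4a3 and 7 passed as lower, beside 12.0% and 11.0% of all genes tested. The marker lists too were drawn up with earlier results of these libraries known, so nothing is read from that count. Among the 7 were Msln (log2 fold change -1.26), Upk3b (-1.03) and Lrrn4 (-1.41), each with an adjusted p under the threshold in edgeR's quasi-likelihood fit. The transcription factor Wt1 measured 37.4 and 33.2 CPM on average in OENr4a3 and OECtrl (log2 fold change 0.17, adjusted p = 0.344 in the same fit). Tbx18, of the same list, measured 127 and 120 CPM on average (log2 fold change 0.08, adjusted p = 0.581 in the same fit). In OENr4a3 both means were slightly higher, without passing. By the same calls, macrophage markers gave 0 higher and 5 lower of 9, and endothelial markers 0 and 2 of 8. Cardiac fibroblast markers gave 3 higher and 2 lower of 9. Smooth muscle and pericyte markers gave 3 and 2 of 7 tested, and cardiomyocyte markers 1 and 1 of 4 tested. What part mesothelial and epicardial cells have in the levels of Aldh1a1 and Aldh1a2 was not tested.

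The stretches of sequence just before the starts of Aldh1a2, Aldh1a1 and Cyp26b1, the 3 genes on which the description most turns, follow, from RefSeq (GRCm38.p6), cut where an annotated exon begins. Capitals mark a CCAAT box, a TATAAA box or the octamer ATGCAAAT. The Aldh1a2 window is chr9:71215539-71215788 on the plus strand, the Aldh1a1 window, before the downstream of 2 RefSeq starts, is chr19:20601718-20601960 on the plus strand, and the Cyp26b1 window is chr6:84593909-84594060 on the minus strand.
Aldh1a2: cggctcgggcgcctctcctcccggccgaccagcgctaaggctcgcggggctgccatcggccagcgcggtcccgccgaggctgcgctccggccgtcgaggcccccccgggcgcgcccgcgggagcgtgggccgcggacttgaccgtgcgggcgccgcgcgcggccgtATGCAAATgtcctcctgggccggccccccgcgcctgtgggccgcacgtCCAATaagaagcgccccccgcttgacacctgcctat
Aldh1a1: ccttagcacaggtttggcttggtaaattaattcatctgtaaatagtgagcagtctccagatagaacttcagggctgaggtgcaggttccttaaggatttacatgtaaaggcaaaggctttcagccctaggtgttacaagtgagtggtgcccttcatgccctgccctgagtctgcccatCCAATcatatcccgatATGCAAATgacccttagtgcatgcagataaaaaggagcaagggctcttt
Cyp26b1: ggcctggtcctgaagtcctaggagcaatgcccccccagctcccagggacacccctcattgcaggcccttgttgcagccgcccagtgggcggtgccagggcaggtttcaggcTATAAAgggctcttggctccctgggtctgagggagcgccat

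Of the 9 genes, 6 had windows in the RefSeq table, 12 windows of 250 bases in all, and they were searched on both strands. Stra6 gave 4 of the windows and Dhrs3 gave 3, with overlap among those of Dhrs3, so the 12 are not independent. The hexamer AGGTCA, which RAR, RXR and NR4A receptors share, was in 0 of the 12 windows, beside 14% of 32851 windows of that length over all genes. Consequently neither the NR4A element AAAGGTCA, which contains the hexamer and occurs in 1.34% of all windows, nor direct repeats of the hexamer with a spacer of 1, 2 or 5 bases, found in 11, 3 and 3 of all windows, were present. Only exact matches were counted, so sites with other letters were not searched for. Repeats as rare as these would hardly be met in 12 windows, so their absence shows nothing. These letters are absent from 250 bases only, and nothing follows from it about binding there or elsewhere. The octamer ATGCAAAT, searched for after the sequences had been read, was in the Aldh1a2 window from base 84 before the start and in the Aldh1a1 window from base 56, with a CCAAT box from bases 36 and 72, while 1.6% of all windows hold the octamer and 33.8% a CCAAT box. The Cyp26b1 window held TATAAA from base 139 before its RefSeq start, a motif of 12.4% of all windows.

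Of the binding proteins of retinoic acid, Crabp1 was lower and Crabp2 had no direction. Crabp1 had 23 and 19 reads in OENr4a3 and 40 and 62 in OECtrl, which is 1.27 and 1.06 CPM against 2.77 and 3.71 CPM. Both OENr4a3 libraries were lower, by a log2 fold change of -1.48 ± 0.33 (SE; 95% interval -2.21 to -0.75), or 2.79-fold. The summed reads, 42 and 102, gave 2.82-fold with a 95% counting interval of 1.95 to 4.13 (Clopper-Pearson). Counting intervals, here and below, leave out variation between libraries. Without OENr4a3 replicate 2, Crabp1 no longer passed the threshold, at a log2 fold change of -1.35.

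Crabp2, which carries retinoic acid to RAR in the nucleus, varied within both groups, at 7.38 and 4.28 CPM in OENr4a3 and 4.22 and 6.70 CPM in OECtrl. The groups overlapped, and the log2 fold change of 0.09 had a 95% interval of -0.59 to 0.76. It stood at -0.36 without OENr4a3 replicate 1 and at -0.20 without OECtrl replicate 1, so no direction can be given. Of the summed level of both binding proteins per kilobase, Crabp1 made up 22.1% and 28.9% in OENr4a3 and 51.9% and 47.7% in OECtrl, or 16.6% and 22.3% against 43.2% and 39.1% by transcript length.

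Breakdown was represented by Cyp26b1 alone. Cyp26b1 had 89 and 80 reads in OENr4a3 and 10 and 10 in OECtrl, or 4.90 and 4.45 CPM against 0.692 and 0.598 CPM. Both OENr4a3 libraries lay far above both OECtrl libraries, a 7.21-fold difference (log2 fold change 2.85 ± 0.32 SE), with a 95% counting interval of 4.57 to 12.2 around the ratio of summed reads. It was the largest fold change of the 8 genes tested, at a low level: per kilobase, Cyp26b1 reached 0.874 CPM in OENr4a3 and 0.121 CPM in OECtrl on average, whereas Aldh1a2 reached 90.8 and 93.3 CPM per kilobase in OENr4a3 and 15.6 and 16.5 in OECtrl. Its relatives were at or under the floor, Cyp26a1 with 0 and 2 reads in OENr4a3 and 1 and 1 in OECtrl, and Cyp26c1 with 0 and 1 reads in OENr4a3 and none in OECtrl.

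**Figure D3:**
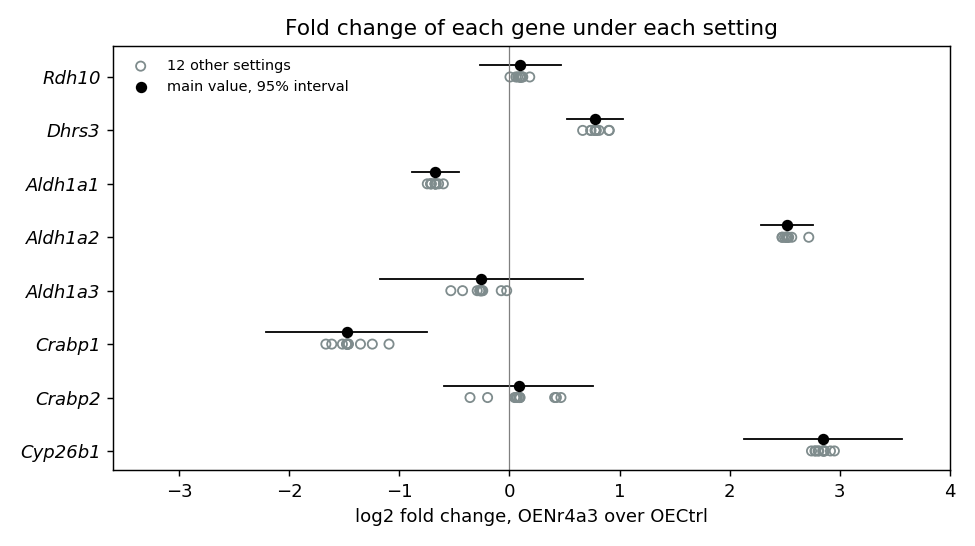
Log2 fold change of OENr4a3 over OECtrl (horizontal axis) for the 8 genes tested, with filled points and bars for the main value and its 95% interval and open points for 12 other settings of the analysis. Aldh1a2, Cyp26b1 and Dhrs3 stay to the right of 0 and Aldh1a1 and Crabp1 to the left, while Crabp2 lies on both sides.

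In the 12 other settings, Aldh1a2 ranged from 2.48 to 2.72, Cyp26b1 from 2.74 to 2.95, Dhrs3 from 0.66 to 0.91, Aldh1a1 from -0.75 to -0.60 and Crabp1 from -1.67 to -1.09 in log2 fold change. The closest other transcript to Aldh1a1 was that of Aldh1a7, with 88.8% identity over 2036 bases, so reads of the pair may be split by the counting. Aldh1a7 had 50 and 66 reads in OENr4a3 and 47 and 73 in OECtrl, while Aldh1a1 had 8275 and 7836 reads in OENr4a3 and 9776 and 12503 in OECtrl. Aldh1a2 and Aldh1a3 shared 69.9% over 1490 bases and Crabp1 and Crabp2 71.2% over 424 bases.

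Of 40 genes that carry, store and convert retinol and its relatives beyond the 9, 20 were tested. In OENr4a3, 1 was higher and 5 were lower, beside 12.0% and 11.0% of all genes tested. The median log2 fold change was -0.13, beside -0.01 for all genes. This list was also drawn up with earlier results of these libraries known, so nothing is read from the count. Some genes of this list and of the lists below were named because their p-values were the smallest of their list. These were Ttr, Cyp2s1, Rbp4, Nrip1, Ncoa2, Rarb, Tgm2 and Nav2. Their p-values are therefore selected and are no independent tests. Adh5, a widely expressed alcohol dehydrogenase, measured 75.8 and 72.3 CPM in OENr4a3 and 87.9 and 102 CPM in OECtrl (log2 fold change -0.36, adjusted p = 0.0464 in edgeR), and did not pass when OENr4a3 replicate 1 or 2 was left out (adjusted p = 0.308 and 0.435).

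Cyp2s1, a cytochrome P450 whose human form can oxidise retinoids, was lower. It measured 9.03 and 8.01 CPM in OENr4a3 and 29.5 and 23.0 CPM in OECtrl (log2 fold change -1.62 ± 0.17 SE, adjusted p = 0.000405 in edgeR's quasi-likelihood test), and kept its call in all 12 other settings. Adh7, an alcohol dehydrogenase active on retinol and named after its values were seen, had 3 and 12 reads in OENr4a3 and 18 and 42 in OECtrl (log2 fold change -2.17, adjusted p = 0.0325 in edgeR). Without OENr4a3 replicate 1 or OECtrl replicate 2, Adh7 missed the threshold (adjusted p = 0.137 and 0.081) at -1.50 and -1.57, and it stood at -3.46 without OENr4a3 replicate 2.

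The carriers of retinol in blood were lower together with hepatocyte genes. Ttr, transthyretin, had 0 and 0 reads in OENr4a3 and 53 and 71 in OECtrl, which is at least 23.8-fold lower in OENr4a3 with a floor of 3 reads per library (adjusted p = 0.000301 in edgeR's quasi-likelihood test). Rbp4, the retinol carrier that STRA6 binds, had 2 and 4 reads in OENr4a3 and 18 and 23 in OECtrl, a 7.92-fold ratio (95% counting interval 3.34 to 22.8; adjusted p = 0.00992 in edgeR), and the adjusted p was 0.0505 with OENr4a3 replicate 1 left out. The 9 hepatocyte markers, with Ttr among them, summed to 0.716 and 0.946 CPM in OENr4a3 and 53.0 and 39.5 CPM in OECtrl. All 9 had reads in OECtrl and 5 in OENr4a3, where Apoa1, Fga, Fgb and Ttr were at 0. Each of the 9 passed as lower, beside 11.0% of all genes tested. This marker list was drawn up with earlier results known and counts Ttr itself, so nothing is read from that share. The part of these hepatocyte genes in the Ttr and Rbp4 differences was not tested. Lrat, which stores retinol as ester and is named after its values were seen, had 25 and 6 reads in OENr4a3 and 2 and 0 in OECtrl, too few to pass the filter.

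Of the RAR and RXR genes tested, Rarb alone passed. Rarb, a receptor gene that is itself a classical target of retinoic acid, measured 6.78 and 7.29 CPM in OENr4a3 and 3.11 and 1.97 CPM in OECtrl. The groups were apart by a log2 fold change of 1.48 ± 0.25 (SE; adjusted p = 0.00553 in edgeR's quasi-likelihood test), and the call was kept in all 12 other settings. Rara and Rarg, given for comparison and named after their values were seen, measured 24.4 and 50.1 CPM on average in OENr4a3 and 21.9 and 44.0 CPM in OECtrl, without passing the test (adjusted p = 0.408 and 0.244 in edgeR). Rarb was named for its small p in this same fit, so that p-value is no independent test. Whether Rarb differed more than Rara and Rarg did was not tested.

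Of 14 receptors and their partners, 13 were tested, and 7 were higher and 1 was lower, beside 12.0% and 11.0% of all genes tested. Their median log2 fold change was 0.62, beside -0.01 for all genes, and this list too was drawn up with earlier results known. These are long genes, with a median of 7514 exonic bases against 4126 for all genes tested, and across genes longer ones were higher in OENr4a3 (Spearman's rho 0.42, 15029 genes, which are not independent replicates). With that trend removed from each library, 5 were higher and 1 was lower, and the median was 0.22. Nrip1, a corepressor that retinoic acid induces, measured 48.5 and 46.2 CPM in OENr4a3 and 25.8 and 23.1 CPM in OECtrl (log2 fold change 0.95, adjusted p = 0.0012 in edgeR's quasi-likelihood test), and stood at 0.64 with the length trend removed (adjusted p = 0.002).

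The coactivator Ncoa2 and the corepressor Ncor1 passed only with the length trend in place. Ncoa2 measured 80.9 and 82.2 CPM in OENr4a3 and 55.3 and 51.1 CPM in OECtrl (log2 fold change 0.62, adjusted p = 0.00546 in edgeR), and 0.19 on the log2 scale without the trend (adjusted p = 0.171). Leaving out either OENr4a3 library also put it on the other side of the threshold (adjusted p = 0.0516 and 0.0643). Ncor1 measured 200 and 221 CPM in OENr4a3 and 160 and 114 CPM in OECtrl (log2 fold change 0.62, adjusted p = 0.0199), with 0.28 without the trend (adjusted p = 0.0676) and an adjusted p of 0.103 without OENr4a3 replicate 2. Fabp5, which can carry retinoic acid to another receptor, PPARD, was the 1 gene of this list that was lower, at 85.3 and 83.2 CPM in OENr4a3 and 107 and 130 CPM in OECtrl (log2 fold change -0.50, adjusted p = 0.0184 in edgeR). With OENr4a3 replicate 1 or 2 left out it did not pass (adjusted p = 0.153 and 0.197).

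Of 29 genes known from other cells to respond to retinoic acid, outside the 9, 19 were tested, and 9 were higher and 1 was lower in OENr4a3, beside 12.0% and 11.0% of all genes tested. The median log2 fold change was 0.41, beside -0.01 for all genes, or 0.21 with 7 higher and 2 lower after removal of the length trend. The list was drawn up with earlier results of these libraries known, so the count is no independent evidence of a direction. Rarb and Nrip1 are also in the receptor list. Tgm2, transglutaminase 2, measured 132 and 140 CPM in OENr4a3 and 74.5 and 68.9 CPM in OECtrl (log2 fold change 0.92 ± 0.10 SE, adjusted p = 0.000709 in edgeR's quasi-likelihood test). Its call was kept in all 12 other settings, between 0.87 and 0.98. Tgm2 was named for its small p in this same fit and for its abundance, so that p-value is no independent test.

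Rarres1, a retinoic acid receptor responder named after its values were seen, measured 3.97 and 3.67 CPM in OENr4a3 and 1.25 and 1.73 CPM in OECtrl (log2 fold change 1.34, adjusted p = 0.0142 in edgeR; 0.0626 without OENr4a3 replicate 1). Nav2, a very long gene of neurite growth, measured 33.7 CPM on average in OENr4a3 and 17.5 CPM on average in OECtrl (log2 fold change 0.95, adjusted p = 0.00226 in edgeR), but 0.29 with the length trend removed (adjusted p = 0.108). Also higher, and named after their values were seen, were Rarres2 (log2 fold change 0.41, adjusted p = 0.0465 in edgeR), Meis1 (0.50, adjusted p = 0.0345) and Zfp703 (0.56, adjusted p = 0.0318). All 3 lost their calls without OENr4a3 replicate 1 (adjusted p = 0.380, 0.188 and 0.304), without OENr4a3 replicate 2 (0.240, 0.176 and 0.0742) and when no low-count filter was applied (0.0947, 0.0728 and 0.0683). Meis1 stood at 0.21 with the length trend removed (adjusted p = 0.191).

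The Hox genes of the list, the best known targets of retinoic acid in the embryo, were scarce. Hoxa2, Hoxa3, Hoxa4, Hoxb1 and Hoxb5 had too few reads to be tested, and most of the others did not pass. The 1 gene of the list that was lower was Hoxd4, named after its values were seen, with 6 and 12 reads in OENr4a3 and 17 and 45 in OECtrl (log2 fold change -1.96, adjusted p = 0.0326 in edgeR's quasi-likelihood test). Without OENr4a3 replicate 1 or OECtrl replicate 2, Hoxd4 missed the threshold (adjusted p = 0.119 and 0.138), at -1.54 and -1.23. Hoxb3 and Hoxb4, also named after their values were seen, measured 2.49 and 1.25 CPM on average in OENr4a3 and 1.21 and 2.57 CPM in OECtrl, and neither passed (adjusted p = 0.0659 and 0.0622 in edgeR). Hoxb1 had no read in any library, and Cyp26a1, among the strongest embryonic targets, had 2 reads in each group.

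**Figure D4:**
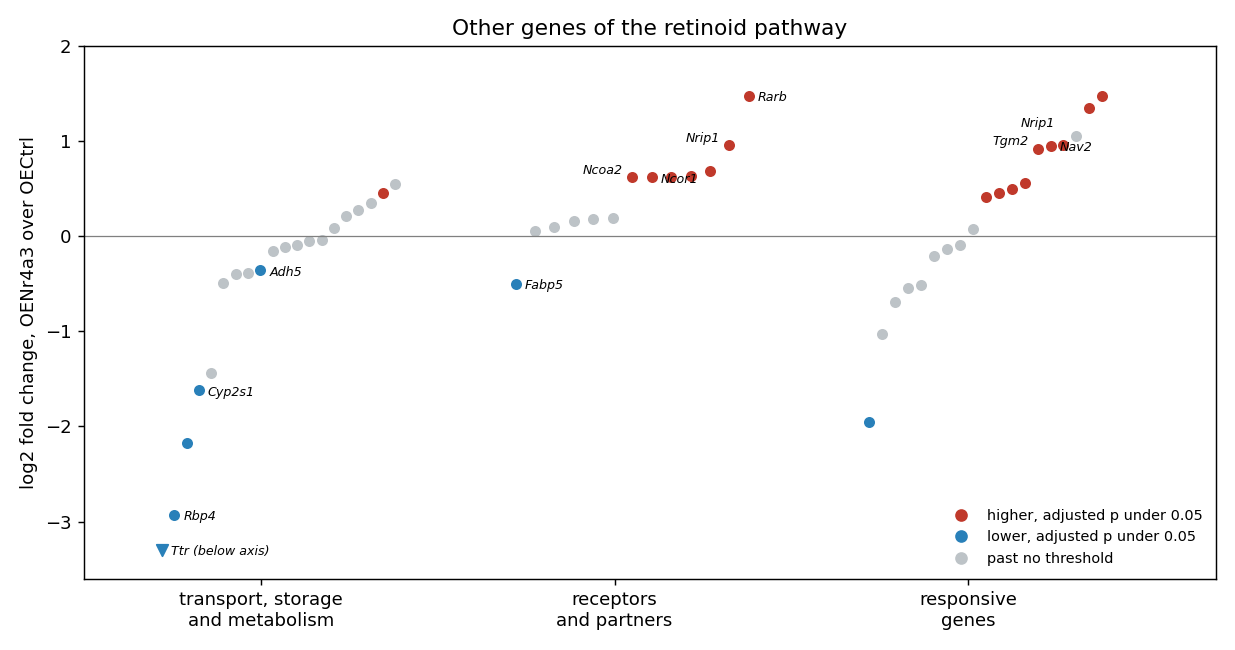
Log2 fold change of OENr4a3 over OECtrl (vertical axis) for the tested genes of the 3 wider lists, ordered within each list, with red for higher and blue for lower at an adjusted p of 0.05 and grey for genes that did not pass. The list of transport, storage and metabolism holds 1 red and 5 blue points, the receptors and partners 7 and 1, and the responsive genes 9 and 1, and Ttr lies below the axis because it had 0 reads in OENr4a3.

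In GRCm38 with the GENCODE M21 annotation, matched by Ensembl identifier, Aldh1a2 (ENSMUSG00000013584) runs from 71215789 to 71296243 of chromosome 9, plus strand, overlapping Gm48124 on the other strand. Aldh1a1 (ENSMUSG00000053279) runs from 20492715 to 20643465 of chromosome 19, plus strand, overlapping C730002L08Rik and Gm6684 on the other strand. Cyp26b1 (ENSMUSG00000063415) lies on chromosome 6 from 84571414 to 84593908, minus strand, Dhrs3 (ENSMUSG00000066026) on chromosome 4 from 144892827 to 144928209, plus strand, and Crabp1 (ENSMUSG00000032291) on chromosome 9 from 54764748 to 54773110, plus strand, none of them with an overlapping gene. Stra6 overlaps Gm16131 and Ccdc33. With the counting's strand setting unknown, reads from such neighbours cannot be separated from those of the gene.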

How the data were processed

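RNA was extracted with TRIzol, followed by depletion of ribosomal RNA, a stranded kit and paired sequencing, per the labels' protocols, although the labels name the molecule polyA RNA. The authors deposited whole-number counts per Ensembl gene for 4 libraries, per the file headers. The deposited FPKM columns were not used, and 1 of them names no single library. Trimmomatic 0.36, Subread 1.5.1, featureCounts, SAMtools and mm10 were named in the submitters' processing notes, while aligner, annotation and strand setting are not given. The gene starts and ends in the table equalled those of GENCODE M21 (GRCm38) for 1494 of 52083 shared identifiers, so its coordinates were not printed.

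In R 4.3.3, edgeR 4.0.16 kept genes by filterByExpr, scaled libraries by TMM and tested OENr4a3 against OECtrl by the two-sided quasi-likelihood F-test without a replicate block, with Benjamini-Hochberg adjustment over 15029 genes and calls at 0.05. SEs equal the log2 fold change divided by the root of F. CPM per kilobase used the deposited exonic lengths. The fit was also run on counts simulated with the same dispersion in every gene and group, and no result here rests on that run.

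Samples were grouped by title. Replicate libraries differed beyond sampling noise, with a chi-square over its degrees of freedom of 2.55 in OENr4a3 and 15.5 in OECtrl. The edgeR fit gives each gene the same dispersion in both groups, so its p-values and SEs do not reflect this unequal spread. The 9 genes, 3 wider lists and 8 marker lists were chosen with earlier results of these data known. Lists are described by counts and medians. Besides the 9 genes, the 3 smallest p and 2 most abundant per kilobase of each wider list are named, except 1 gene that is not reported here, and Nr4a3 checks the labels. Alternatives were DESeq2 1.42.0, limma-voom (limma 3.58.1), other size factors, other filters, a threshold of 0.01, each library left out, a replicate block, removal of the trend with exonic length (lowess, span 0.3) and, added after seeing the data, transcript lengths in place of exonic lengths. Transcripts were compared with blastn 2.17.0.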

Additional observations from a re-analysis of the deposited data

How the results depend on the processing

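The count of 5 called genes among the 9 was 4 at an adjusted p of 0.01 or without OENr4a3 replicate 2, Crabp1 being the one lost in both, and 5 in each of the other alternatives. Over all genes 3457 were called, and 1878 without the filter on low counts, 911 at an adjusted p of 0.01, and 1229 to 7773 with 1 library left out, where the lone library of a group is assumed to vary like the other pair. Called genes of the retinol transport and metabolism list numbered 3 in place of 6 without the filter or at 0.01, and 2 to 10 with a library left out. Those of the receptor list numbered 3 in place of 8 at 0.01, and 3 to 10 with a library left out. Those of the responsive genes numbered 5 in place of 10 without the filter, 4 at 0.01, and 4 to 11 with a library left out. Crabp2 changed sign without OENr4a3 replicate 1 (-0.36) and without OECtrl replicate 1 (-0.20), and reached 0.47 without OECtrl replicate 2. The Aldh1a sum per kilobase was higher in OENr4a3 by 21.98 CPM by exonic length and differed by -37.0 by transcript length, the choice of length alone turning it. The causes of these changes were not tested. The difference between replicates 1 and 2 had a correlation of -0.078 between the groups across 15029 genes. With 2 libraries per group, that value cannot tell whether libraries of the same number were paired. With a replicate block 3851 genes were called, with 5 of the 9, 5, 8 and 11 in the wider lists, and the call of Adh5 was lost (adjusted p = 0.0624 in edgeR). The calls of Rarres2 in DESeq2 (0.0918), with upper-quartile factors (0.0652) and with the block (0.0527), of Zfp703 in DESeq2 (0.0663), of Adh5 in DESeq2 (0.0572) and without the filter (0.114), of Fabp5 without the filter (0.052), and of Adh7 (0.072) and Hoxd4 (0.0688) without the filter were lost too. At 16 to 23 reads per library, as for Aldh1a3, depth limits the width of the interval.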
